A study of Mus musculus with 12 samples.

Results

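The genes described here encode the nuclear subunits of the mitochondrial respiratory chain and ATP synthase, together with the assembly factors whose symbols share their prefixes. A gene was taken if its annotated symbol began with Nduf, Sdha to Sdhd, Uqcr, Cox4 to Cox8 or Atp5, or was Cycs or Cyc1, which gave 95 of the 19937 genes measured. Of these, 84 were subunits or cytochrome c and 11 were assembly factors. They were followed across 12 microarrays of osteoblasts and endothelial cells, sorted out of long bones. The mice were female and of strain C57BL/6. Tumor-bearing mice had received 500000 EO771 cells, a mouse mammary carcinoma line of that strain, into the heart about 2 weeks earlier, while the controls were tumor-free. The 4 groups were osteoblasts of tumor-bearing mice, osteoblasts of tumor-free mice, endothelial cells of tumor-bearing mice and endothelial cells of tumor-free mice, with 3 arrays each that the labels call biological replicates. Osteoblasts were gated as CD51+ cells negative for GFP, CD45, Sca1, CD31 and the marker the labels write as TR119, and endothelial cells as Sca1+ CD31+ cells negative for GFP, TR119 and CD45. Each array held amplified RNA of 5000 cells. The labels do not say whether an array holds cells of 1 mouse or of several, nor whether the arrays of both cell types share mice.

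The respiratory chain sits in the inner mitochondrial membrane. Complex I takes electrons from NADH and complex II from succinate, ubiquinone carries them to complex III, and cytochrome c carries them on to complex IV, which reduces oxygen. Complexes I, III and IV pump protons as the electrons pass, and ATP synthase lets the protons flow back to make ATP. Most subunits are nuclear genes, and a few core subunits of complexes I, III, IV and ATP synthase are encoded in mitochondrial DNA. In other systems many of the nuclear genes are bound by the transcription factors NRF1 and GABPA (also known as NRF2).

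The promoters of 4 of the genes are shown because 3 belong to the members that passed the test in a comparison below and the fourth holds both kinds of motif. Each line gives the 250 bases before the gene's start, 5' to 3' on the gene's strand, from RefSeq on build GRCm38.p6. Capitals mark matches, on either strand, to the NRF1 letters (GCGC, any base, then TGCGC) or the GABPA letters CCGGAAG.
Ndufc2, chr7:97399753-97400002, plus strand: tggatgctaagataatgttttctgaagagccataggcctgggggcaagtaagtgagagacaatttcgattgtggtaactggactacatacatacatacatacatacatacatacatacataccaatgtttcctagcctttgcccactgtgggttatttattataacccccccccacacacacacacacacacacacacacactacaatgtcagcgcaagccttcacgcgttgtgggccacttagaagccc
Ndufa11, chr17:56717512-56717761, plus strand: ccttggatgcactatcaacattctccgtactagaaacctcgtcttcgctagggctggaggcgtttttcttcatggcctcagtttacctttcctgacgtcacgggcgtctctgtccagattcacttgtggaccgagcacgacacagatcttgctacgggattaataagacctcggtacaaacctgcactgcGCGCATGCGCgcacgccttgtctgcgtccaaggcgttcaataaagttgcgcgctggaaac
Ndufaf7, chr17:78936885-78937134, plus strand: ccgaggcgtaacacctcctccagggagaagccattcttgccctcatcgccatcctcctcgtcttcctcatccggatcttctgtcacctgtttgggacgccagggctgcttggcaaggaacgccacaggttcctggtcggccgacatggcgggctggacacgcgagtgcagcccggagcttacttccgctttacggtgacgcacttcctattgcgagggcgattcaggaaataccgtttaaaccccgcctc
Cox6a1, chr5:115348959-115349208, minus strand: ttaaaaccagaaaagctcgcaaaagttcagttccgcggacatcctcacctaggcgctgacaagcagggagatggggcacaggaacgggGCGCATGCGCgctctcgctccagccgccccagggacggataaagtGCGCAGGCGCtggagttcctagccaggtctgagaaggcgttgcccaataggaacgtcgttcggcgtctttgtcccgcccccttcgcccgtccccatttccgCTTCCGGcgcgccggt

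In the Ndufa11 promoter the NRF1 letters start 60 bases before the gene's start. The promoter of Cox6a1, a subunit of complex IV, holds the NRF1 letters 2 times and the GABPA letters 1 time. Neither motif is in the windows of Ndufc2 and Ndufaf7. Promoters were on hand for 78 of the 95 genes. The NRF1 letters were found for 13 of the 78 (16.7%), against 3.74% of all 32851 promoters, and the GABPA letters for 15 (19.2%), against 6.91% of all promoters. Some genes have more than 1 promoter. Counted by promoter, the shares were 14 of 83 (16.9%) for NRF1 and 15 of 83 (18.1%) for GABPA. Both motifs were found for 3 genes, Atp5h, Cox6a1 and Sdhd, and at least 1 of them for 25. By complex, the NRF1 letters were in 4 of 15 ATP synthase genes, 5 of 31 complex I subunits, 2 of 3 complex II subunits, 0 of 5 complex III genes and 1 of 13 complex IV genes. The YY1 letters AAGATGGC and the ESRRA letters TCAAGGTCA were found for 1 gene each, Atp5j and Atp5g3 (1.28% of the 78 genes each, against 1.56% and 0.387% of all promoters). A match describes the sequence only.

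Marker genes of both gates were checked first. All 8 endothelial markers were lower and all 6 measured osteoblast lineage markers higher in osteoblasts than in endothelial cells, with and without tumor (adjusted p under 0.05 by limma). The mean of the endothelial markers was 5.48 to 5.77 log2 units on the osteoblast arrays and 10.15 to 10.48 on the endothelial arrays. Chondrocyte markers were also higher in osteoblasts than in endothelial cells, 9 of 9 tested in tumor-bearing and 7 of 9 in tumor-free mice, with list means of 7.90 to 9.95 on the osteoblast arrays and 5.88 to 6.29 on the endothelial arrays. Of 7 proliferation genes 2, Top2a and Mki67, were higher in osteoblasts under both conditions. Markers of blood cells were uneven within the osteoblast groups: the mean of 8 pan-haematopoietic markers was 6.56 in replicate 3 of the tumor-bearing group against 6.14 and 6.16 in the others, and 6.83 in replicate 3 of the tumor-free group against 5.85 and 5.73. The neutrophil list stood at 9.70 in that tumor-free replicate. The mean of the markers of skeletal muscle, a tissue rich in respiratory chain transcripts, was between 6.09 and 6.35 on every array. Of 13 marker lists, 2 had array means in osteoblasts that did not overlap with and without tumor and 5 in endothelial cells. The erythroid list stood at 6.08 to 6.79 in tumor-bearing and 7.09 to 7.15 in tumor-free osteoblasts, and at 5.94 to 6.20 in tumor-bearing and 6.34 to 6.72 in tumor-free endothelial cells. The adipocyte list was also lower in tumor-bearing osteoblasts, at 6.75 to 6.90 against 6.91 to 7.16. In endothelial cells the pericyte and smooth muscle list stood at 7.37 to 7.40 in tumor-bearing and 6.97 to 7.03 in tumor-free mice, and the osteoblast lineage, macrophage and adipocyte lists were also higher with tumor. No gene of these lists passed in either tumor contrast, and their part in the members' values was not tested.

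Array medians over all probe sets lay between 5.95 and 6.04, and 14217 genes passed a filter on dim values. Of the 95 genes 93 passed it. The exceptions were Ndufaf6, a complex I assembly factor, and Cox7b2, a paralog of the complex IV subunit Cox7b. Ndufaf6 read 5.24, 5.34 and 4.98 in osteoblasts of tumor-bearing mice, 4.94, 4.80 and 4.54 in osteoblasts of tumor-free mice, and 4.59 to 4.88 on the endothelial arrays. Cox7b2 read 5.46 on 1 array, osteoblast replicate 3 of tumor-bearing mice, and 3.66 to 3.85 on the other 11. Where a gene had several probe sets, as 19 did, the brightest was used. Cox7c, Ndufb1, Ndufb4 and Ndufaf8 had no probe set with a single symbol and were not analysed here.

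In osteoblasts of tumor-bearing against tumor-free mice, no respiratory chain gene passed the test. Of the 93 tested, 0 had an adjusted p under 0.05 by limma, against 0.0563% of all genes tested (8 of 14217), and 6 had an unadjusted p under 0.05, against 9.78% of all genes. The members' median log2 fold change was 0.10 and 63 of 93 were positive, beside a median of -0.02 and 46.7% positive over all genes tested. The 93 log2 fold changes ran from -0.52 for Cox7a2 to 0.73 for Ndufaf5, and for 74 of them the 95% interval lay within a 2-fold change either way (79.6%, against 78.9% of all genes). That left 19 whose intervals reached past 2-fold. Under quantile normalization 52 of 93 were positive, with a median of 0.05. Without replicate 3 in both osteoblast groups 48 were positive and the median was 0.02, while the count past the threshold remained 0.

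By complex the groups overlapped. The mean over the 34 complex I subunits was 8.89, 8.84 and 9.03 in osteoblasts of tumor-bearing mice, against 8.86, 8.83 and 8.73 in tumor-free osteoblasts. Over the 9 complex III genes it was 8.69, 8.69 and 8.94 against 8.74, 8.43 and 8.86, and over the 18 complex IV genes tested 8.85, 8.99 and 8.91 against 8.80, 8.91 and 8.90. The 17 ATP synthase genes averaged 10.15 ± 0.0882 in tumor-bearing and 10.07 ± 0.113 in tumor-free osteoblasts, and the 4 complex II subunits 8.22 ± 0.156 and 8.28 ± 0.205 (SD, n = 3). In each of these 5 complexes at least 1 tumor-free array lay above at least 1 tumor-bearing array. The precision was not even: 95% intervals lay within 2-fold for all 4 complex II subunits, all 9 complex III genes and all 17 ATP synthase genes, for 25 of 34 complex I subunits and 15 of 18 complex IV genes, and for only 3 of the 10 assembly factors tested.

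**Figure D1:**
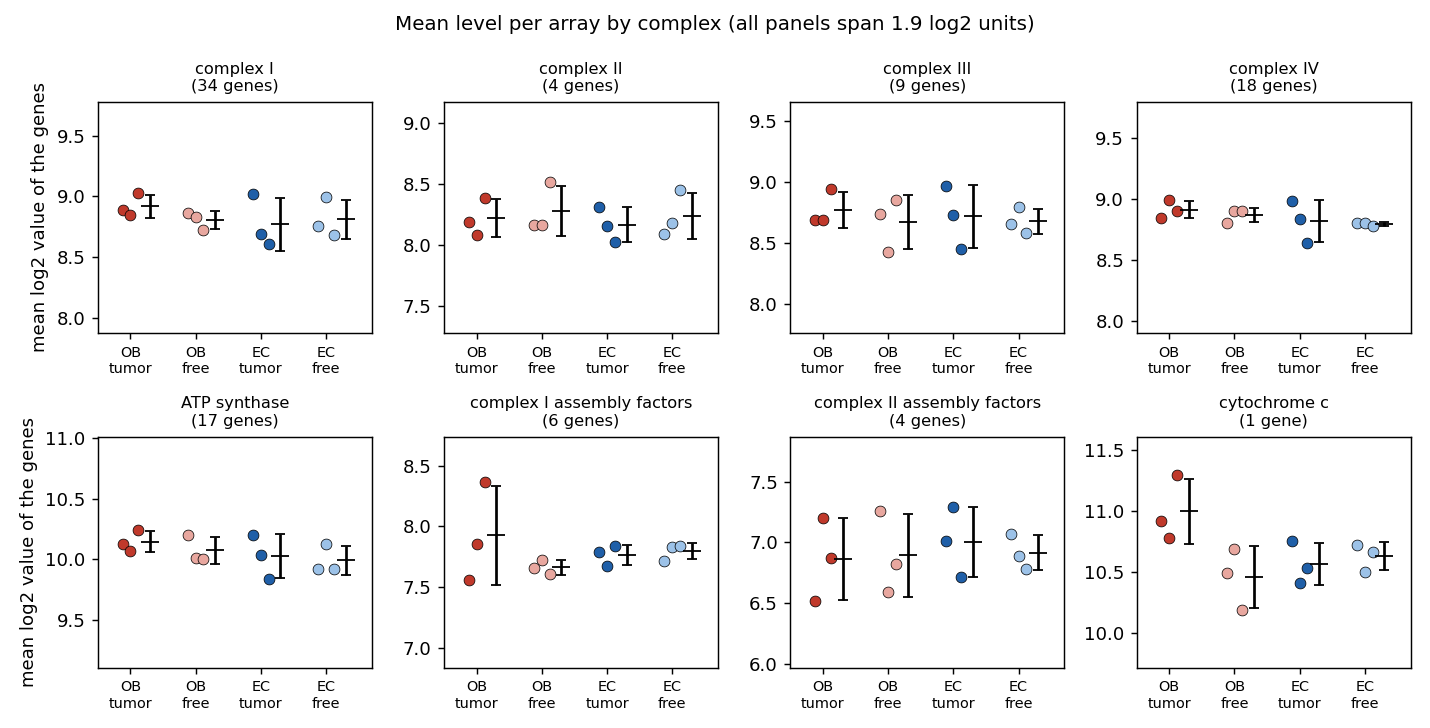
Mean log2 value per array over the genes of each complex (vertical axis), by group (OB, osteoblasts, EC, endothelial cells, from tumor-bearing or tumor-free mice). Points are arrays, the horizontal bar is the group mean and the error bar 1 SD (n = 3), and all panels span the same number of log2 units. The 2 osteoblast groups overlap in each of the 5 complexes, and the cytochrome c panel shows 3 tumor-bearing osteoblast arrays above the 3 tumor-free ones.

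Cycs, the electron carrier cytochrome c, had the smallest unadjusted p in osteoblasts. It read 10.92, 10.78 and 11.29 in osteoblasts of tumor-bearing mice, 10.49, 10.69 and 10.18 in tumor-free osteoblasts, 10.75, 10.41 and 10.53 in tumor-bearing endothelial cells, and 10.72, 10.50 and 10.66 in tumor-free endothelial cells. All 3 tumor-bearing osteoblast arrays were above all 3 tumor-free ones, and the endothelial groups overlapped. The log2 fold change in osteoblasts was 0.54 (SE 0.17, 95% interval 0.16 to 0.92) with an unadjusted p of 0.0093 and an adjusted p of 0.344 by limma. The highest and the lowest osteoblast values of Cycs both came from replicate 3, and without that replicate in both groups the log2 fold change was 0.26 with an adjusted p of 0.695. The gene's other probe sets gave log2 fold changes of 0.74 and, on a dim probe set, -0.23. Cycs lies on chromosome 6. In the array's numbering the dim probe set falls among those of other chromosome 6 members, and the brightest, used here, does not. Whether the probe set used reads Cycs itself or a related sequence was not tested.

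Among complex I subunits, Ndufa6 and Ndufa9 had the highest moderated statistics in osteoblasts. Ndufa6, an accessory subunit of the matrix arm, read 8.67, 8.27 and 8.41 in tumor-bearing osteoblasts against 8.15, 7.68 and 7.57 in tumor-free osteoblasts, groups that did not overlap. Ndufa9, an accessory subunit at the junction of the matrix and membrane arms, read 9.34, 9.50 and 9.95 in tumor-bearing against 9.05, 9.32 and 8.40 in tumor-free osteoblasts, again without overlap. Their log2 fold changes were 0.65 and 0.67, and neither passed (adjusted p of 0.391 and 0.434 by limma). Ndufa9 depended on replicate 3: without it in both groups the log2 fold change was 0.23, and for Ndufa6 it was 0.56. Ndufa11, an accessory subunit of the membrane arm, went the other way. It read 8.65, 8.99 and 8.91 in osteoblasts of tumor-bearing mice, all below the 9.22, 9.43 and 9.18 of tumor-free mice, with a log2 fold change of -0.43 (95% interval -0.75 to -0.10, adjusted p = 0.367 by limma).

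In all, 9 of the 93 genes tested had osteoblast groups that did not overlap (9.68%, against 14.5% of all genes tested). The 4 with higher tumor-bearing arrays were Cycs, Ndufa6, Ndufa9 and Ndufb6, against 6.18% of all genes in that direction. The 5 with lower ones, against 8.36% of all genes, were Ndufa7, Ndufa11, Cox6c, Cox8c and Atp5mpl, with log2 fold changes of -0.43 to -0.11. The assembly factors Ndufaf4 and Ndufaf7, which act in the building of complex I, had log2 fold changes of 0.66 and 0.64 (adjusted p of 0.510 and 0.511 by limma). Cox7a2, the complex IV subunit with the lowest fold change, read 8.71, 9.67 and 9.02 in tumor-bearing and 9.32, 9.40 and 10.25 in tumor-free osteoblasts, which overlapped. Because these are sorted bulk samples, fewer cells expressing a gene and less of its RNA per cell cannot be told apart.

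**Figure D2:**
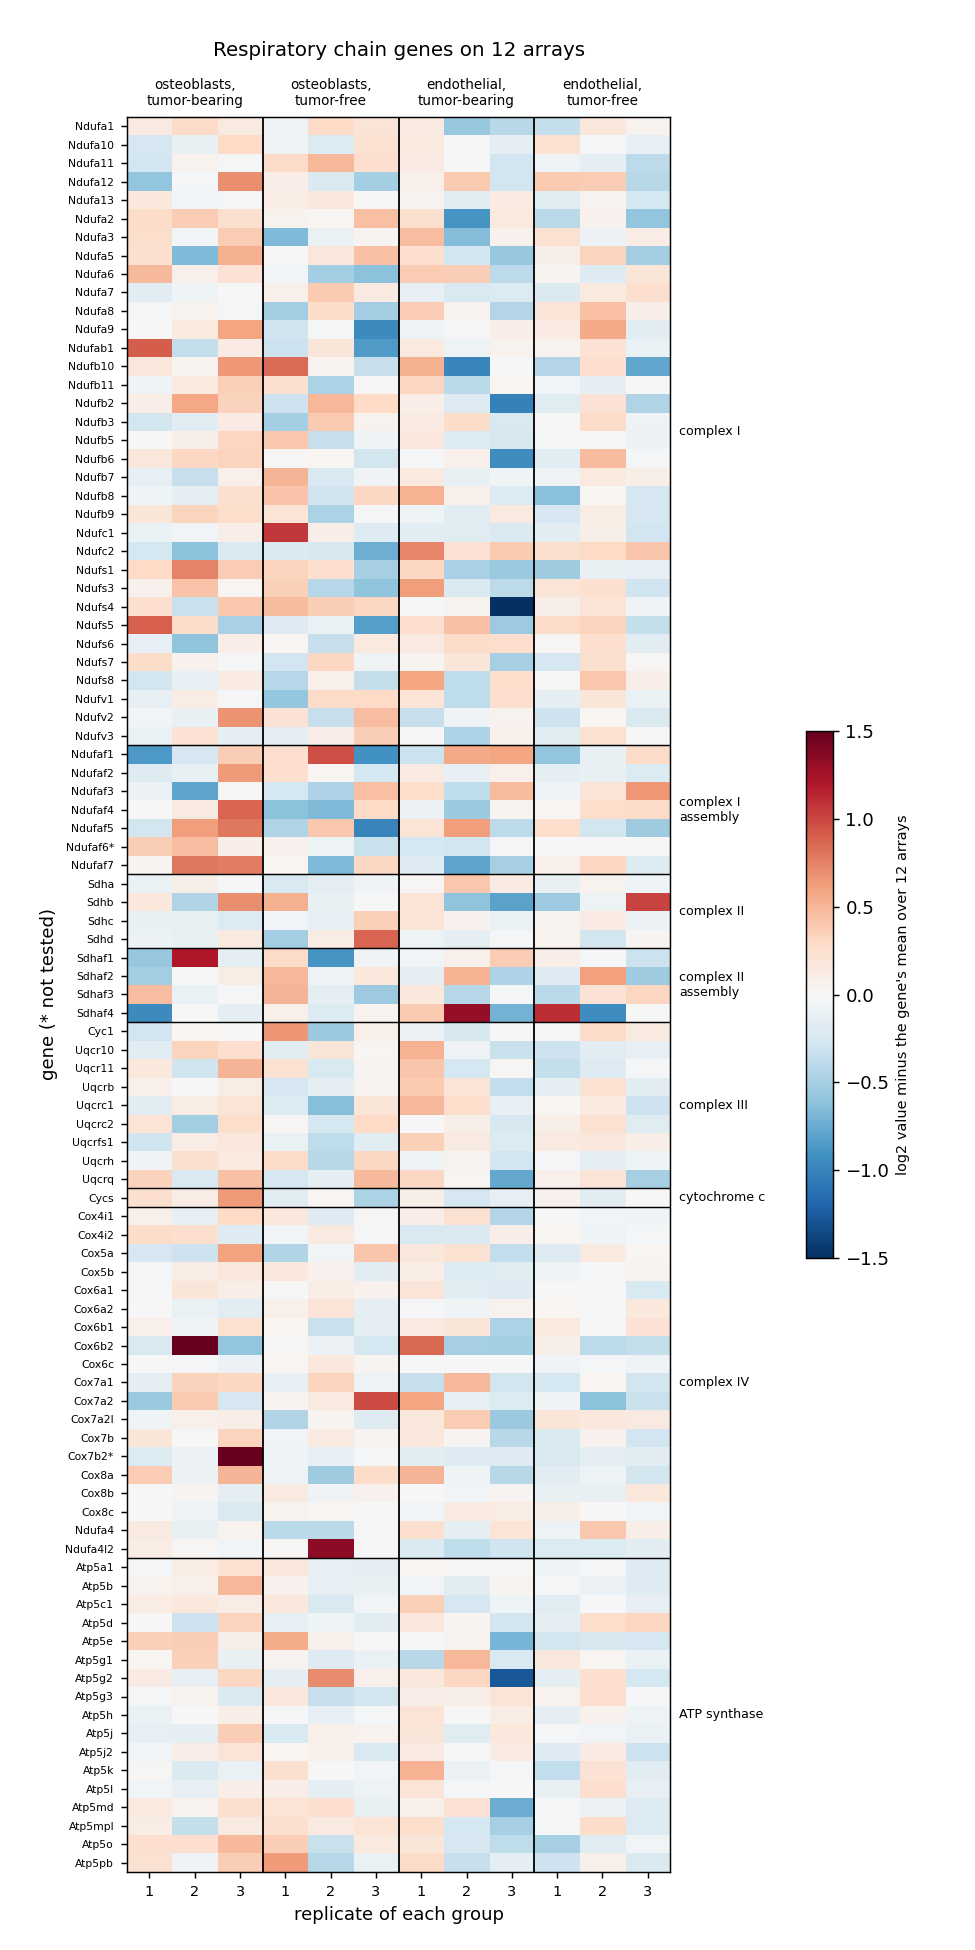
Log2 value of each of the 95 genes minus its own mean over the 12 arrays (colour, blue below and red above the gene's mean, with values past the ends of the scale drawn in the end colours), with genes in rows ordered by complex and arrays in columns by group. Asterisks mark the 2 genes that did not pass the filter. Cox6b2 and Cox7b2 each show a single tumor-bearing osteoblast array far above the gene's mean.

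In endothelial cells of tumor-bearing against tumor-free mice, the respiratory chain genes also gave no call. Of the 93 tested, 0 had an adjusted p under 0.05 by limma, against 0.0141% of all genes (2 of 14217), and 0 had an unadjusted p under 0.05, against 4.59% of all genes. Their median log2 fold change was 0.01, with 47 positive, and over all genes tested it was 0.01 with 51.4% positive. The values ran from -0.65 for Ndufs4 to 0.42 for Cox7a2, and 81 of 93 intervals lay within 2-fold (87.1%, against 83.3% of all genes). Groups did not overlap for 3 genes (3.23%, against 10.5% of all genes): Cox6c and the ATP synthase alpha subunit Atp5a1 had higher tumor-bearing arrays, with log2 fold changes of 0.05 and 0.12 (2 genes, against 5.63% of all genes in that direction), and Ndufa4l2 lower ones, with -0.11 (1 gene, against 4.87%).

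Ndufs4, an accessory subunit that joins late in complex I assembly, had the lowest endothelial fold change, with 1 array far below the others. It read 10.26, 10.30 and 8.46 in tumor-bearing endothelial cells against 10.34, 10.45 and 10.20 in tumor-free ones, and its log2 fold change was -0.65 (95% interval -1.57 to 0.26, adjusted p = 1.00 by limma). Replicate 3 of the tumor-bearing endothelial group was the lowest of all 12 arrays for 17 of the 93 genes, against 5.96% of all genes tested, and the highest for 0. Osteoblast replicate 3 of tumor-bearing mice was the highest of 12 arrays for 23 of the 93, against 10.7% of all genes. The sign of the endothelial median turned with single arrays: without tumor-bearing replicate 1 it was -0.07 with 29 positive, without tumor-free replicate 3 it was -0.02 with 40 positive, and without tumor-bearing replicate 3 it was 0.08 with 63 positive.

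Sdha, the flavoprotein of succinate dehydrogenase, read 9.31, 9.70 and 9.41 in tumor-bearing endothelial cells against 9.19, 9.35 and 9.23 in tumor-free ones (log2 fold change 0.22, 95% interval -0.05 to 0.48). The lowest tumor-bearing array lay below the highest tumor-free array. The iron-sulfur subunit Sdhb was less precise, with 7.94, 7.12 and 6.93 in tumor-bearing against 7.18, 7.65 and 8.74 in tumor-free endothelial cells and a log2 fold change of -0.53 (95% interval -1.48 to 0.42). The membrane anchors Sdhc and Sdhd had endothelial log2 fold changes of 0.03 and -0.02. In osteoblasts the complex II subunits Sdha, Sdhb, Sdhc and Sdhd had log2 fold changes of 0.14, 0.00, -0.21 and -0.17. None of the 8 values passed the test.

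The difference between both tumor effects, osteoblasts minus endothelial cells, was also tested. Of the 93 genes 0 passed by limma, against 0.0281% of all genes (4 of 14217), and 5 had an unadjusted p under 0.05, against 6.47% of all genes. These were Ndufaf7 (difference 1.20 log2 units), Ndufaf4 (1.06), Ndufa9 (0.83), Cycs (0.60) and Ndufa11 (-0.57), with adjusted p of 0.672 to 0.763. For 56 of the 93 (60.2%, against 63.3% of all genes) the interval of the difference lay within 2-fold, so that this contrast had the least precision.

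Between the cell types, 3 genes passed. In tumor-bearing mice 2 of the 93 genes tested differed between osteoblasts and endothelial cells at an adjusted p under 0.05 by limma, against 10.6% of all genes tested. Ndufaf7 was higher (4.89% of all genes were) and Ndufc2 lower (5.68% of all genes were). In tumor-free mice it was also 2, against 12.4% of all genes, with Ndufa11 higher (5.38% of all genes were) and Ndufc2 lower (7% of all genes were). At an unadjusted p under 0.05 the counts were 9 of 93 in tumor-bearing mice, against 22.8% of all genes, and 6 in tumor-free mice, against 23.5%. Osteoblast and endothelial arrays did not overlap for 15 of the 93 genes in tumor-bearing mice (16.1%, against 28.1% of all genes) and for 9 in tumor-free mice (9.68%, against 29.4%). The members' median log2 fold change was 0.12 in tumor-bearing mice and 0.04 without tumor, beside -0.03 and -0.01 over all genes tested.

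Ndufc2, an accessory subunit of the membrane arm of complex I, was lower in osteoblasts under both conditions. It read 10.56, 10.22 and 10.61 in osteoblasts against 11.57, 11.05 and 11.22 in endothelial cells of tumor-bearing mice. In tumor-free mice it read 10.61, 10.60 and 10.10 in osteoblasts against 11.08, 11.13 and 11.25 in endothelial cells. All 6 osteoblast arrays lay below all 6 endothelial arrays. The log2 fold change was -0.82 in tumor-bearing mice (SE 0.18, 95% interval -1.22 to -0.42, adjusted p = 0.0151 by limma), which is 1.76-fold lower, and -0.72 in tumor-free mice (SE 0.18, 95% interval -1.12 to -0.32, adjusted p = 0.0256), or 1.64-fold lower. The first call held under 20 of 22 alternative settings and was lost without tumor-bearing osteoblast replicate 2 (-0.70, adjusted p = 0.0590) and without tumor-bearing endothelial replicate 1 (-0.68, adjusted p = 0.0559). The second held under 17 of 22 and was lost without tumor-free osteoblast replicate 3 (-0.55, adjusted p = 0.0760), without any 1 of the tumor-free endothelial arrays, and without both osteoblast replicates 3. Within each cell type Ndufc2 had tumor log2 fold changes of 0.03 in osteoblasts and 0.13 in endothelial cells.

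Ndufa11 was higher in osteoblasts than in endothelial cells of tumor-free mice. In tumor-bearing mice it read 8.65, 8.99 and 8.91 in osteoblasts against 9.06, 8.93 and 8.65 in endothelial cells, with overlap, and in tumor-free mice 9.22, 9.43 and 9.18 in osteoblasts against 8.88, 8.79 and 8.54 in endothelial cells, with none. The log2 fold change was -0.03 in tumor-bearing mice and 0.54 in tumor-free mice (SE 0.15, 95% interval 0.22 to 0.87, adjusted p = 0.0349 by limma), or 1.46-fold. The call in tumor-free mice held under 11 of 22 alternatives. It was lost, among others, without any 1 of the 6 tumor-free arrays, where the adjusted p reached 0.126. A dimmer probe set of the gene gave a log2 fold change of 0.76 for the same contrast.

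Ndufaf7, a methyltransferase that acts in complex I assembly, was higher in osteoblasts than in endothelial cells of tumor-bearing mice. It read 7.04, 7.79 and 7.76 in tumor-bearing osteoblasts against 6.80, 6.20 and 6.49 in tumor-bearing endothelial cells, with no overlap. In tumor-free mice it read 7.03, 6.34 and 7.31 against 7.08, 7.32 and 6.79, with overlap. The log2 fold change was 1.03 in tumor-bearing mice (SE 0.29, 95% interval 0.39 to 1.66, adjusted p = 0.0459 by limma), or 2.04-fold, and -0.17 in tumor-free mice. It held under 9 of 22 alternatives and was lost when any of 9 arrays was left out in turn, with the adjusted p reaching 0.151. The tumor effects behind this contrast were 0.64 in osteoblasts and -0.56 in endothelial cells, and neither passed.

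**Figure D3:**
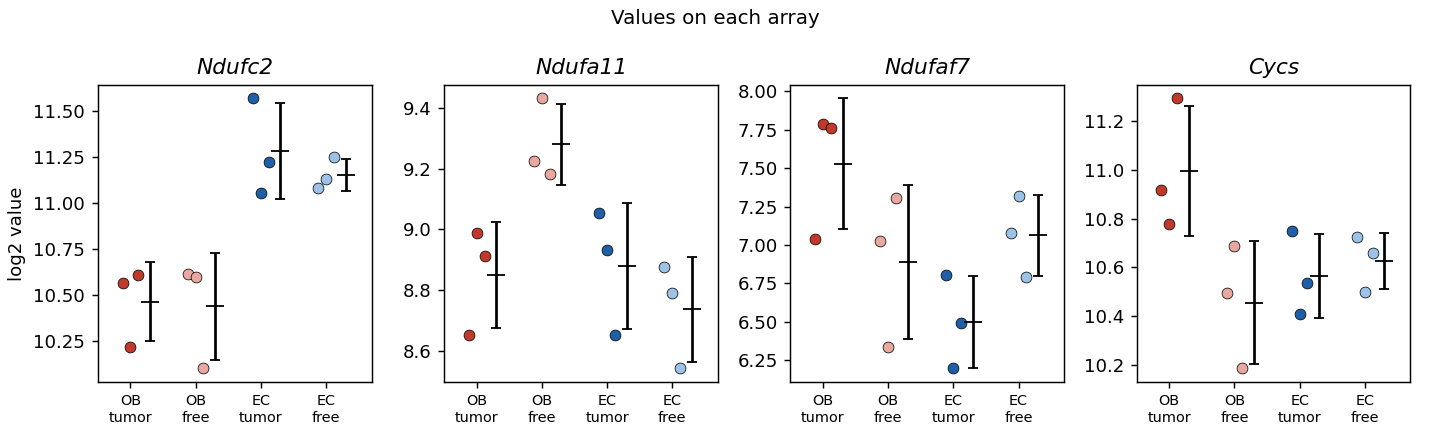
Log2 values of Ndufc2, Ndufa11, Ndufaf7 and Cycs on each array (vertical axes, each with its own range) by group, OB for osteoblasts and EC for endothelial cells, with the group mean and 1 SD (n = 3). For Ndufc2 all 6 osteoblast arrays lie below all 6 endothelial arrays, and for Cycs the 3 tumor-bearing osteoblast arrays lie above the 3 tumor-free ones.

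Other marker lists also held genes that passed in these contrasts. Chondrocyte markers and 2 of 7 proliferation genes were higher in osteoblasts. So were 2 of 5 osteoclast and 1 of 5 erythroid markers under both conditions, and 1 of 5 B cell markers in tumor-free mice. Of 7 macrophage markers 1 was higher and 1 lower under both conditions. In tumor-free mice the pericyte and adipocyte lists each had 2 higher and 2 lower. In tumor-bearing mice the pericyte list had 1 higher and 3 lower, and the adipocyte list 0 higher and 2 lower. Over all genes 12.4% passed in tumor-free and 10.6% in tumor-bearing mice. The part of these markers in the values of Ndufc2, Ndufa11 and Ndufaf7 was not tested. The other members that the rule picked for these contrasts did not pass. Ndufa4, once counted to complex I and now to complex IV, was at 11.61, 11.37 and 11.53 in tumor-bearing osteoblasts and 11.74, 11.34 and 11.69 in tumor-bearing endothelial cells. In tumor-free mice it was at 11.08, 11.08 and 11.47 in osteoblasts and 11.41, 11.89 and 11.58 in endothelial cells, with a log2 fold change of -0.41 (adjusted p = 0.159 by limma). Atp5e, the epsilon subunit of ATP synthase, had log2 fold changes of 0.49 with and 0.46 without tumor, and under both conditions its 3 osteoblast arrays lay above its 3 endothelial arrays (adjusted p of 0.190 and 0.207). Ndufs1, the largest subunit of complex I and holder of iron-sulfur clusters, had 0.72 in tumor-bearing mice (adjusted p = 0.149) and 0.29 in tumor-free mice.

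**Figure D4:**
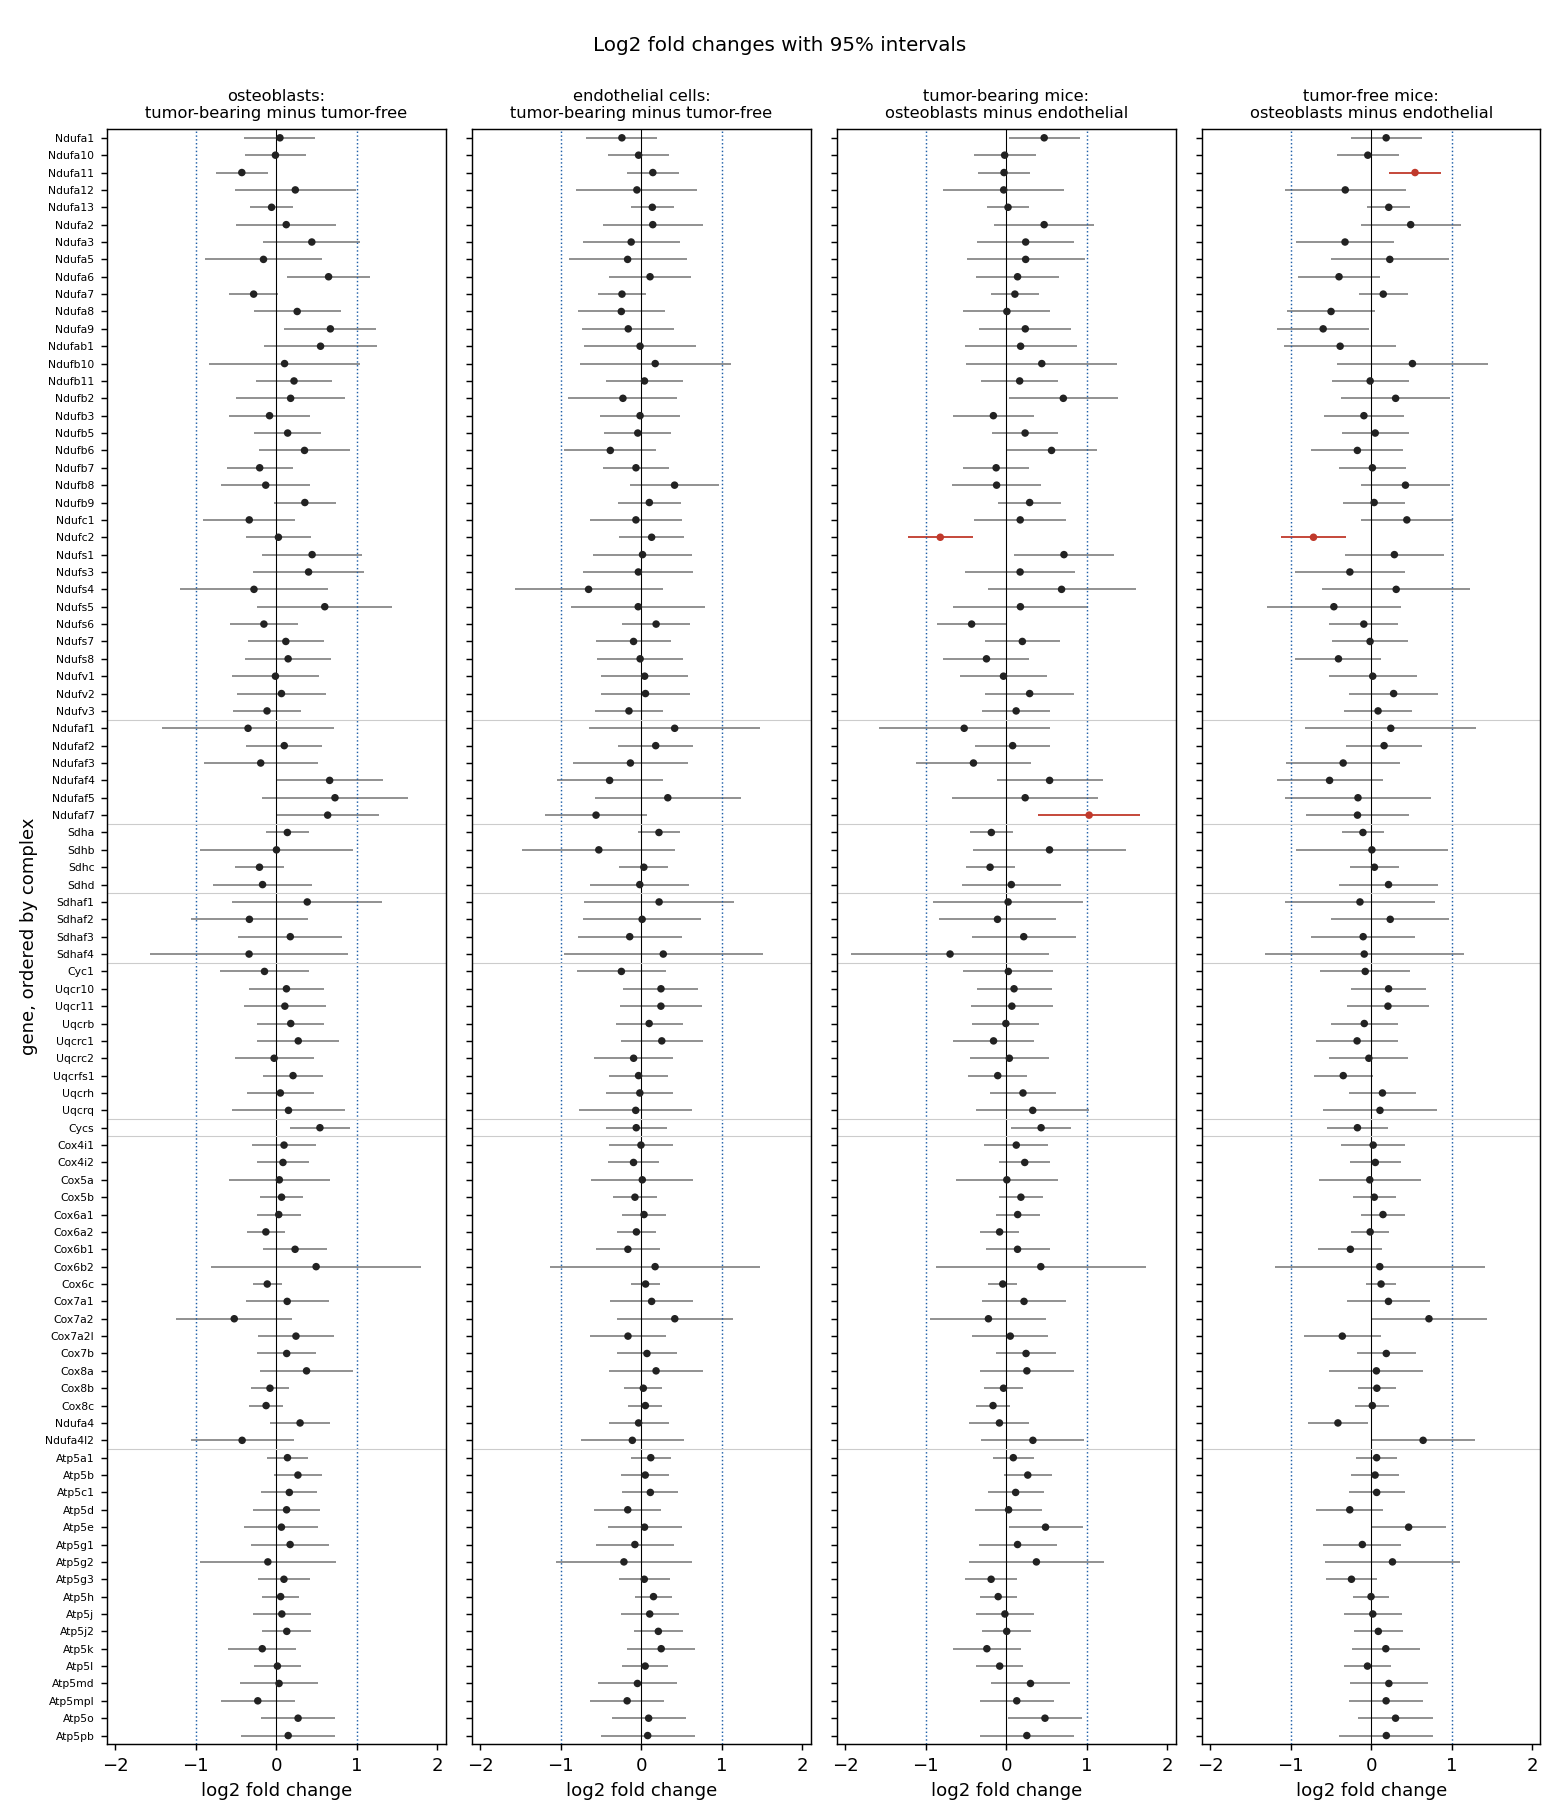
Log2 fold changes (points) and 95% intervals (lines) of the 93 genes tested, ordered by complex, in 4 contrasts: tumor-bearing minus tumor-free in osteoblasts and in endothelial cells, and osteoblasts minus endothelial cells in mice with and without tumor. Dotted lines mark a 2-fold change and red marks an adjusted p under 0.05. Red appears only for Ndufc2 in both cell type contrasts, Ndufaf7 in tumor-bearing mice and Ndufa11 in tumor-free mice.

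Several subunits had group means that lay close together. Ndufv1, the NADH-binding subunit, read 7.38, 7.61 and 7.48 in tumor-bearing osteoblasts, 6.92, 7.78 and 7.80 in tumor-free osteoblasts, 7.71, 7.12 and 7.76 in tumor-bearing endothelial cells and 7.37, 7.69 and 7.40 in tumor-free endothelial cells. Cox5a, a complex IV subunit, had means of 9.25 ± 0.51 in tumor-bearing and 9.21 ± 0.43 in tumor-free osteoblasts, and of 9.24 ± 0.33 in tumor-bearing and 9.23 ± 0.17 in tumor-free endothelial cells (SD, n = 3). The range of group means was 0.04 for each, the smallest among the members. Of the complex III core proteins, Uqcrc2 had a range of 0.10, the Rieske iron-sulfur protein Uqcrfs1 of 0.35 and Uqcrc1 of 0.43. Cyc1, cytochrome c1 of the same complex, had tumor log2 fold changes of -0.15 in osteoblasts and -0.25 in endothelial cells. Atp5b, the catalytic beta subunit of ATP synthase, read 10.84, 10.87 and 11.29 in tumor-bearing and 10.86, 10.66 and 10.68 in tumor-free osteoblasts (log2 fold change 0.27, 95% interval -0.03 to 0.56), and the alpha subunit Atp5a1 had means of 9.77 ± 0.13 and 9.63 ± 0.18.

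Several complex IV subunits have isoforms that are known from heart and skeletal muscle, from lung or from testis. The filter's threshold was 5.51 to 5.61 log2 units depending on the array. The muscle isoforms Cox6a2, Cox7a1 and Cox8b read 6.94 to 7.29, 5.72 to 6.55 and 5.78 to 6.08 over the 12 arrays, and the testis isoform Cox8c 5.67 to 6.01. Cox4i2, known as the lung isoform, read 6.02 to 6.52. Of these 5 genes 0 passed in any contrast. Cox6b2, another testis isoform, read 6.08, 8.28 and 5.71 in tumor-bearing osteoblasts, 6.33, 6.22 and 6.04 in tumor-free osteoblasts, 7.17, 5.81 and 5.80 in tumor-bearing endothelial cells and 6.40, 5.92 and 5.95 in tumor-free endothelial cells. A single array in each tumor-bearing group was high, and its within-group SD of 0.81 was the widest of the 93. Ndufa4l2, a paralog of Ndufa4 known to be induced by hypoxia, read 7.15 in tumor-free osteoblast replicate 2 and 5.77 to 5.92 on the other osteoblast arrays, and 5.44 to 5.66 on the endothelial arrays.

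The ubiquitous counterparts differed in how far their group means lay apart. Cox4i1 had group means between 10.50 and 10.62 and Cox6a1 between 10.84 and 11.02. Cox6c, which is not a counterpart of the isoforms above, was the steadiest member. It read 11.81 to 12.05 with a within-group SD of 0.04. Cox8a, the counterpart of Cox8b and Cox8c, had a range of group means of 0.44, and Cox7a2, that of Cox7a1, had 0.72, with a log2 fold change of 0.72 between osteoblasts and endothelial cells of tumor-free mice that did not pass. Cox7b and Cox6b1 had log2 fold changes of 0.13 and 0.23 in osteoblasts and 0.07 and -0.17 in endothelial cells. The 3 genes that encode the same mature c-ring subunit of ATP synthase, Atp5g1, Atp5g2 and Atp5g3, had osteoblast log2 fold changes of 0.17, -0.11 and 0.09 and endothelial values of -0.08, -0.22 and 0.04, and 0 of the 3 passed in any contrast.

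The members had a somewhat higher median spread than all genes tested and shared part of their variation. The median within-group SD was 0.286 for the 93 genes and 0.229 for all genes tested. Their median level was also higher, 8.83 against 6.71 log2 units, and spread was not compared at like levels. The median SD was 0.237 for ATP synthase, 0.217 for complex IV, 0.289 for complex III and 0.324 for complex I. It was 0.416 for complex I assembly factors and 0.510 for complex II assembly factors. The mean pairwise correlation of the members over the 12 arrays was 0.105, against 0.00866 for all genes tested. It was 0.308 among complex III genes, 0.232 among ATP synthase genes, 0.123 among complex I subunits and 0.026 among complex IV genes, and -0.036 among complex II subunits. These are descriptions over arrays that share their processing, and genes are not independent replicates.

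Genes next to the chain were read from 7 related lists. Of the 13 genes of the chain encoded in mitochondrial DNA, 2 were measured, ND3 of complex I and COX2 of complex IV, and 0 passed in any contrast. COX2 read 12.19, 12.24 and 12.01 in tumor-bearing and 12.39, 12.30 and 12.27 in tumor-free osteoblasts, with all 3 tumor-bearing arrays lower (log2 fold change -0.17, adjusted p = 0.653 by limma). In endothelial cells its log2 fold change was -0.11. No gene of the 7 lists passed in either tumor contrast. In osteoblasts the median log2 fold change over all genes tested was -0.02, with 46.7% positive. The 16 genes of pyruvate dehydrogenase and the tricarboxylic acid cycle, which feed NADH and succinate to the chain, had 0.34 with 12 positive. The 17 regulators of mitochondrial biogenesis had 0.18 with 14 positive, and the 13 carriers and channels 0.24 with 10 positive. The medians of the other lists ran from -0.14 to 0.06. In endothelial cells the medians were -0.08 for the cycle, -0.03 for the regulators, 0.19 for the carriers (8 positive) and 0.01 over all genes. The cycle list averaged 7.94, 7.91 and 8.36 in tumor-bearing and 7.86, 7.67 and 7.79 in tumor-free osteoblasts, highest in tumor-bearing replicate 3.

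Between cell types, single genes of these lists passed. In tumor-bearing mice it was 5 of the 106 genes tested (4.72%, against 10.6% of all genes). In tumor-bearing mice the ADP/ATP carriers Slc25a5 and Slc25a4 were higher in osteoblasts than in endothelial cells, 2 of 13 carriers and channels tested. Slc25a5 read 11.17, 11.02 and 11.48 in tumor-bearing osteoblasts against 10.50, 10.44 and 10.30 in tumor-bearing endothelial cells (log2 fold change 0.81, adjusted p = 0.0164 by limma), and Slc25a4 had a log2 fold change of 0.68 (adjusted p = 0.0435). Idh3a, a subunit of the cycle's NAD-dependent isocitrate dehydrogenase, was higher by 1.24 (adjusted p = 0.0293), 1 of 16 in its list, and Ssbp1, which binds single-stranded mitochondrial DNA, by 1.14 (adjusted p = 0.0258), 1 of 17. Taco1, needed for translation of a core complex IV subunit, had -0.76 (adjusted p = 0.0499), 1 of 35 other assembly factors tested.

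In tumor-free mice 6 of the 106 genes passed between the cell types (5.66%, against 12.4% of all genes). Polg2, the accessory subunit of the mitochondrial DNA polymerase, read 6.78, 6.06 and 6.49 in tumor-free osteoblasts against 8.78, 7.77 and 8.81 in tumor-free endothelial cells (log2 fold change -2.01, adjusted p = 0.00113 by limma). The transcription factor Yy1 was lower in osteoblasts by 0.77 (adjusted p = 0.00351), and the complex I assembly factor Tmem126b by 2.07 (adjusted p = 0.0119). Of 15 genes of coenzyme Q synthesis and other electron donors to ubiquinone, Sqor and Etfdh were lower, with log2 fold changes of -1.64 and -1.15, and the methyltransferase Coq5 was higher, with 1.00 (adjusted p of 0.0132, 0.0151 and 0.0347). In the test of the difference between both tumor effects 0 genes of the 7 lists passed. Of the 8 genes of mitochondrial peroxide and superoxide defence 0 passed in any contrast. The factors whose motifs were searched above gave no tumor call: Nrf1 had log2 fold changes of -0.15 in osteoblasts and 0.02 in endothelial cells, Gabpa 0.14 and -0.14, and Esrra -0.13 and 0.02.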

How the data were processed

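RNA of 12 samples was hybridised to Affymetrix Mouse Gene 1.0 ST arrays. Per the labels' protocols it was isolated with a Pico Pure kit, amplified with the Ovation Pico WTA System and turned into sense target with the WT-Ovation Exon Module. The submitters' processing notes name affy. Its version, the probe set summary and the normalization were not given in the sources used here. Values on the log2 scale, as the authors deposited them, were used unchanged. Amplification from few cells can distort proportions, and fold changes of dim probe sets are understated.

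The platform annotation gave 1 symbol to 21640 probe sets, updated through a RefSeq table of GRCm38.p6. The brightest probe set stood for a gene. Whether that probe set lies at the gene's own position in the genome was not checked. A gene was tested if it exceeded the 40th percentile of the array on at least 3 of 12 arrays of any group. With limma 3.58.1 in R 4.3.3, group means were fitted to all 12 arrays (8 residual and 2.36 prior degrees of freedom). Two-sided p-values of 5 contrasts were adjusted by Benjamini-Hochberg over 14217 genes. The 95% intervals are per gene. The number of arrays limits the precision.

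The members and lists were chosen with earlier results of these data known, and no test was made over the members as a set. A rule picked, in each contrast, the members that passed and the 5 highest and 5 lowest statistics. Beside them stood the succinate dehydrogenase and cytochrome subunits, the core subunits with Cox5a and Cox5b, and the isoform sets. The 5 widest ranges of group means and up to 4 genes per related list were also picked. Not every gene picked has its values in the text. Atp5k, Atp5j2, Ndufb8, Ndufa13, Ndufs6, Cox5b and Cox7a2l are among those left out. A gene named outside this rule, for an extreme, a lack of overlap or a motif, was chosen after its values were seen. The alternatives changed the normalization, the filter, the choice of probe set, the variance estimate, array weights, a replicate block, the groups fitted, or left out each array. Leaving out osteoblast replicate 3 in both groups was added after the data were seen. The fit was also run on simulated data with independent noise for each gene. Such data hold no shift shared by the genes of an array, so the run does not cover that case.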

Additional observations from a re-analysis of the deposited data

How the results depend on the processing

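The counts of members that passed were 0 in both tumor contrasts and in the difference of the tumor effects under every alternative run, and 0 without any 1 array. The fit of only the groups compared was not run for the difference, which needs all 4. Osteoblasts against endothelial cells gave 2 members under each condition. In tumor-bearing mice the count was 1, Ndufc2, with only the groups compared and without osteoblast replicate 3 in both groups, and 0 to 3 when single arrays were left out. With no filter it was 2, with Ndufaf6 in place of Ndufaf7 (adjusted p = 0.0599), and without tumor-bearing endothelial replicate 1 it was 2 other genes, Ndufa1 and Ndufs1. In tumor-free mice it was 1, Ndufc2, with trend and robust estimation and with only the groups compared, 1 (Ndufaf4 in place of both) without osteoblast replicate 3 in both groups, and 0 to 2 when single arrays were left out (Ndufa8 in place of Ndufa11 without tumor-free osteoblast replicate 2).

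Same-numbered arrays did not deviate together: 18 correlations lay between -0.0797 and 0.074, and 0 exceeded 0.1. With 3 arrays a group, this check cannot tell whether same-numbered arrays share mice or a sort. With the replicate number as a block the tumor-bearing cell type count was 1 (Ndufc2), while Ndufaf7 had an adjusted p of 0.0819. The block moved no other count. For the members picked by the naming rule, 4260 of the recomputed values kept their side of the threshold. Those without a call also stayed within the spread, and called values were not compared with it. Of the rest, 31 lost a call, 5 gained one, 16 without a call moved by more than the spread and 0 turned sign while called. With the mean of its probe sets Cycs passed by limma in place of Ndufa11 in tumor-free mice (log2 fold change -0.50, osteoblasts minus endothelial cells, adjusted p = 0.0216). That mean leaned on a dim probe set with a mean level of 5.27 and a log2 fold change of -0.93. The brighter probe sets of Cycs gave -0.17 and -0.39. With 3 arrays a group, a change of over 2-fold stayed within the 95% interval for 19 of 93 members in osteoblasts. The causes were not tested.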

Other observations

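A few values stood on single arrays. Sdhaf1, an assembly factor of complex II, read 9.58 in tumor-bearing osteoblast replicate 2 against 7.81 and 8.23 in the other replicates of that group. Atp5g2 read 9.30 in tumor-bearing endothelial replicate 3 against 10.72 and 10.87 in the others. Ndufc1, a small membrane arm subunit of complex I, read 8.68 in tumor-free osteoblast replicate 1 and 7.33 to 7.72 on the other 11 arrays. Sdhaf4 spread over 2 log2 units within endothelial groups, with 6.51, 7.43 and 5.42 in tumor-bearing and 7.23, 5.19 and 6.12 in tumor-free mice. These genes were chosen after their values were seen.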
